A study of Drosophila melanogaster with 12 samples.

Results

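Cell death genes were followed on 12 Affymetrix arrays of Drosophila melanogaster eye-antennal imaginal discs. The 10 genes are the IAP antagonists hid, rpr, grim and skl, the inhibitor of apoptosis Diap1, the initiator caspase gene Dronc, the effector caspase genes Drice and Dcp-1, the adaptor gene Dark and p53. They were chosen by name, and a probe set was taken wherever its single gene symbol in the platform annotation was 1 of the 10. This gave 8 of the 18952 probe sets, which stand for 6 of the 11981 genes so named on the array: grim, skl, Dronc, Dcp-1, Dark with 2 probe sets and p53 with 2. For the other 4, hid, rpr, Diap1 and Drice, no probe set was named by this rule, and they are not analysed here.

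The discs came from wandering third-instar larvae raised at room temperature, with 30 pairs pooled for each array, and each of 4 genotypes had 3 biological replicates. The controls were the driver ey-Gal4, in which eyeless regulatory DNA drives the yeast activator Gal4 in the eye disc, and the transgene UAS-wge, which is silent without Gal4. The third genotype, ey-Gal4 UAS-wge, carries both and is written ey>wge: it overexpresses winged eye (wge), whose BAH-domain product acts on chromatin, and per the series title its discs transdetermine. The fourth carries ey-Gal4 UAS-wge with the Su(var)3-9[1]/[2] allele pair in the gene for a histone H3 lysine methyltransferase of heterochromatin. No group carries the allele pair without ey>wge, and the effect of these alleles by themselves, or of their genetic background, cannot be told apart from one that depends on winged eye.

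In flies, a cell commits to apoptosis when the products of grim, skl, hid and rpr bind Diap1 and release the caspases that it holds back. Dronc is then activated on a scaffold built by Dark, the fly Apaf-1 protein, and cleaves the effector caspases Drice and Dcp-1. The transcription factor p53 switches on IAP antagonist genes after DNA damage, and in the normal retina apoptosis removes surplus cells during pupal life, later than the stage sampled here. Caspases are made as inactive precursors, so a transcript level says nothing of how much of the enzyme is active.

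Values are MAS5 signals on a linear scale, and changes are given on the log2(signal + 16) scale with the standard error (SE) of a limma model fitted to all 12 arrays. A comparison with both controls is one with the average of ey-Gal4 and UAS-wge. A gene is said to have passed where its p, adjusted after Benjamini and Hochberg across the 13817 probe sets tested, was under 0.05. The filter asked for a signal above the 40th percentile of the array on at least 3 arrays. Of the 8 cell death probe sets 7 were tested, and the brightest stands for a gene. The model takes the same spread for all genotypes. The median standard deviation within a genotype (log2 scale) was 0.359 for the allele pair and 0.229 to 0.251 for the others. With only the groups compared in the fit, 722 probe sets passed in ey>wge against both controls, beside 410. In the allele pair against ey>wge 252 then passed, beside 939. Nothing in the labels says when discs were dissected or arrays run. Median signals were 38.7 to 43.7 on the 9 arrays of the first 3 genotypes. They were 44.4, 33 and 34 on allele-pair replicates 1, 2 and 3. In replicates 2 and 3 of the allele pair, longer genes had lower signals than in ey>wge (Spearman correlations with gene span, across genes, of -0.302 and -0.397, beside -0.0286 to 0.158 on the other 10 arrays). Some results of that group are therefore also given with replicate 1 alone or with the span trend removed. Those of wge and of the cell type markers are not. With replicate 1 alone the group is a single array, which is taken to vary like the arrays of the other genotypes, so its p rests on their spread. Replicate 1 stood apart in another way. Its 3 tested fat body markers of 7 listed (Lsp2, Fbp1 and Fbp2) summed to 663, beside 60.2 to 174.5 on the other 11 arrays, and Lsp2 (1.42 ± 0.37, adjusted p = 0.0111) and Fbp2 (1.46 ± 0.44, adjusted p = 0.0251) were higher in the allele pair than in the controls. Of 5 tested glia markers loco, moody and repo were lower there, and the sum of the 5 was 11384 to 16032 beside 14175 to 20439 on the control arrays. The part of fat body and glia in the allele-pair results was not tested. The summed signal of 12 eye-antennal disc markers was 27839 to 35000 on the 6 control arrays, 13135 to 13996 on the ey>wge arrays and 10664 to 13387 on the allele-pair arrays. All groups thus expressed markers of the labelled tissue, and 9 of the 12 were lower in ey>wge than in ey-Gal4, and 8 than in UAS-wge. The probe set of wge itself read 776 to 951 in ey-Gal4, 801 to 931 in UAS-wge, 925 to 1162 in ey>wge and 443 to 875 with the allele pair. Its change in ey>wge over both controls (0.32 ± 0.17, adjusted p = 0.498) did not pass, its fall with the allele pair against ey>wge (-0.72 ± 0.20, adjusted p = 0.0358) did, and whether the transgene holds the probed sequence was not tested, so the genotypes rest on the labels. Whether a lower signal in such bulk discs reflects fewer cells of a type or less RNA per cell cannot be told apart.

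No cell death gene passed in ey>wge discs. For the bright transcripts p53, Dark, Dronc and Dcp-1 the 95% intervals of the fold over both controls lay between 0.751 and 1.40. The dimmer skl and grim were brighter than 37.4% and 12.3% of the probe sets tested. In the allele-pair discs Dcp-1 was 1.37-fold the average of both controls and Dark 0.732-fold, and both passed. Neither passed against ey>wge.

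**Figure D1:**
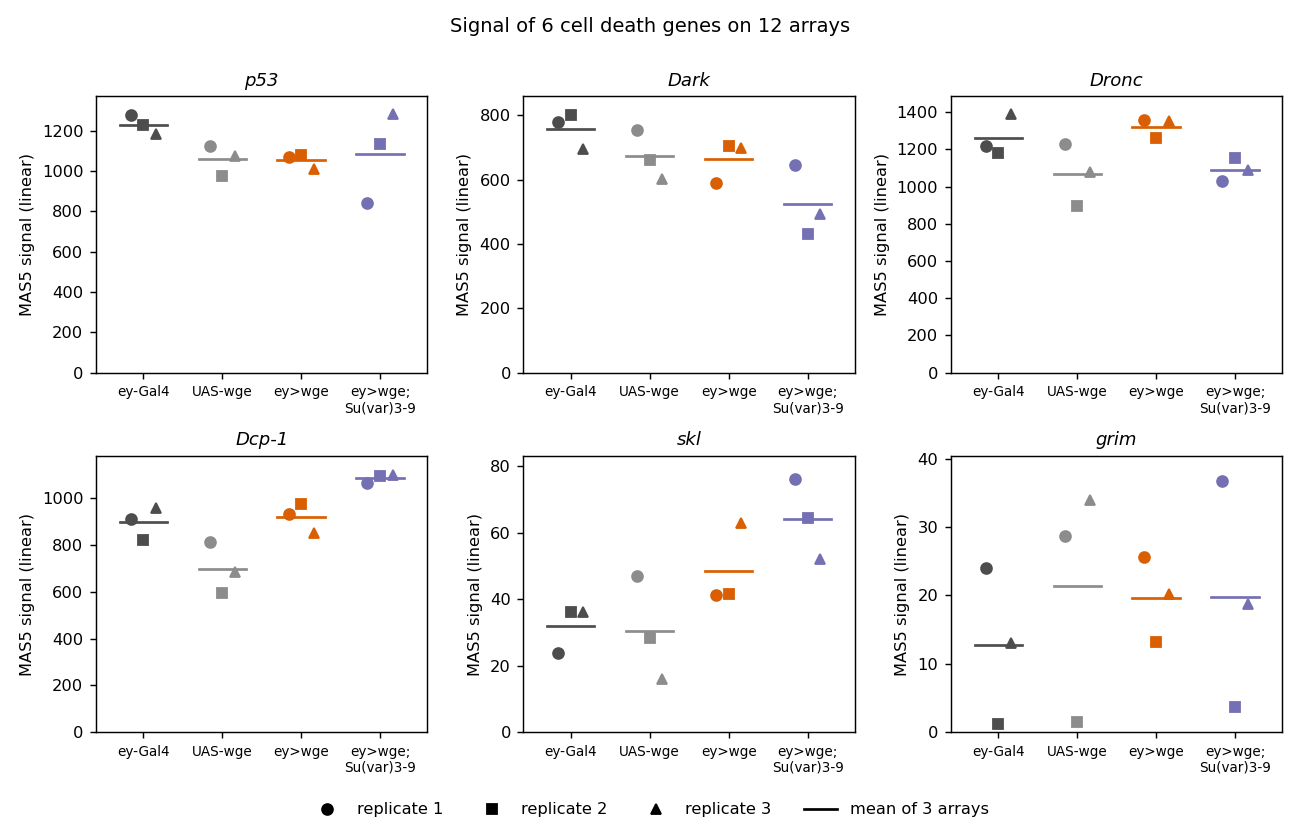
MAS5 signal (linear axis from 0) of the brightest probe set of each of 6 cell death genes, with 1 point per array, a symbol per replicate and a line at the mean of the 3 arrays of each genotype. The 3 allele-pair points of Dcp-1 lie between 1064.6 and 1100.1, above all other arrays, while grim runs from 1.2 to 36.7 with all groups overlapping.

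The upstream regulator p53 read 1280, 1228 and 1185 in ey-Gal4, 1126, 975 and 1074.5 for UAS-wge, 1068, 1080 and 1012 in ey>wge, and 840, 1137 and 1284 with the allele pair. All 3 ey-Gal4 arrays were above the UAS-wge and ey>wge arrays, and the allele-pair arrays spanned the whole range of the others. The change of p53 in ey>wge, measured from the average of the controls, was -0.11 ± 0.13 (SE; adjusted p = 0.839), a fold of 0.925 with a 95% interval of 0.764 to 1.12. For the allele pair it was -0.09 ± 0.13 (adjusted p = 0.703) from the same average and 0.02 ± 0.15 against ey>wge (adjusted p = 0.955). The other p53 probe set read 0.6 to 26.3 over the 12 arrays, was above the 40th percentile on 0 of them, and was not tested.

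The IAP antagonist genes grim and skl were the dimmest of the cell death genes tested, and grim was the dimmer of them. For grim the signals were 24.0, 1.2 and 13.0 in ey-Gal4, 28.7, 1.5 and 34.0 for UAS-wge, 25.6, 13.2 and 20.2 in ey>wge, and 36.7, 3.7 and 18.7 with the allele pair. It was above the 40th percentile of its array (21.2 to 28.6) on 3 of 12 arrays, the fewest that the filter allows. The groups overlapped throughout, and the spread within groups was 0.641 on the log2 scale beside 0.568 over all arrays.

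The signals of skl were 23.8, 36.1 and 36.3 in ey-Gal4, 47.1, 28.4 and 15.9 for UAS-wge, 41.4, 41.6 and 63.0 in ey>wge, and 76.2, 64.4 and 52.1 with the allele pair. They were above the 40th percentile of the array on 10 of 12 arrays. The ey>wge arrays lay above the ey-Gal4 arrays and overlapped UAS-wge, and the allele-pair arrays lay above all 6 control arrays. The difference of skl did not pass in ey>wge against both controls (0.47 ± 0.30, adjusted p = 0.619), where the interval ran from 0.896-fold to 2.14-fold. In the allele pair against both controls it was 0.79 ± 0.30 (adjusted p = 0.0711) and also did not pass. There skl passed without UAS-wge replicate 1 (adjusted p = 0.0474), with quantile normalization (0.0215), centred array medians (0.0447), array weights (0.0117) or no trend in the variance prior (0.0391), and not with allele-pair replicate 1 alone (1.00; adjusted p = 0.305) or the span trend removed (0.60; adjusted p = 0.19). In the supplied gene table (Release 6 plus ISO1 MT) hid, grim, rpr and skl follow each other in this order on chromosome arm 3L, the cluster of IAP antagonist genes. By the naming rule used here, only the second and the fourth of them have a probe set. Whether probe sets with several symbols or none measure hid or rpr was not tested.

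Of the genes for the apoptosome, the complex that activates caspases, Dark read 780, 800 and 695 in ey-Gal4, 755, 660.3 and 603 for UAS-wge, 589, 706 and 697 in ey>wge, and 646, 432 and 494 with the allele pair. Allele-pair replicates 2 and 3 were the lowest of the 12 arrays, and replicate 1 lay inside the range of the controls. For ey>wge the change of Dark was -0.10 ± 0.15 against both controls (adjusted p = 0.877; 0.751-fold to 1.15-fold). In the allele-pair discs it was -0.45 ± 0.15 (adjusted p = 0.036), a fall to 0.732-fold with an interval of 0.591 to 0.907. That call was lost without ey-Gal4 replicate 1 (adjusted p = 0.0632) or 2 (0.0704), UAS-wge replicate 1 (0.0829) or 2 (0.0597), and allele-pair replicate 2 (0.219) or 3 (0.111). It was also lost with quantile normalization (0.149), centred array medians (0.126), no trend in the variance prior (0.0704), only the groups compared (0.0583) or the mean of both probe sets (0.43). With allele-pair replicate 1 alone the change of Dark was -0.14 (adjusted p = 0.736) and with the span trend removed -0.27 (adjusted p = 0.156). Against ey>wge the change was -0.35 ± 0.17 (adjusted p = 0.234), and Dark passed there only with array weights (-0.56, adjusted p = 0.00194) or without allele-pair replicate 1 (-0.50, adjusted p = 0.0274). The second probe set of Dark, at 1.5 to 54.7 over all arrays, changed by -0.26 ± 0.50 with the allele pair against both controls (adjusted p = 0.781).

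The initiator caspase gene Dronc read 1221, 1178 and 1390.2 in ey-Gal4, 1230, 898 and 1078 for UAS-wge, 1356, 1259 and 1351 in ey>wge, and 1030.4, 1152 and 1090.1 with the allele pair. The 3 ey>wge arrays lay above the UAS-wge arrays and above the allele-pair arrays, and overlapped ey-Gal4. The difference of Dronc did not pass in ey>wge against both controls (0.19 ± 0.12, adjusted p = 0.621; 0.955-fold to 1.36-fold) or against UAS-wge alone (0.31 ± 0.14, adjusted p = 0.353). The difference with the allele pair was -0.27 ± 0.14 against ey>wge (adjusted p = 0.257; 0.673-fold to 1.01-fold) and -0.08 ± 0.12 against both controls (adjusted p = 0.702).

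The effector caspase gene Dcp-1 read 913, 821 and 960 in ey-Gal4, 816, 596 and 683 for UAS-wge, 934, 978 and 852 in ey>wge, and 1065, 1096 and 1100.1 with the allele pair. The allele-pair arrays stood above the other 9, the UAS-wge arrays stood below the other 9, and ey>wge overlapped ey-Gal4. With the allele pair Dcp-1 rose by 0.46 ± 0.13 over the average of both controls (adjusted p = 0.015), to 1.37-fold with an interval of 1.14 to 1.65. The controls differed, with mean signals of 898 in ey-Gal4 and 698 in UAS-wge beside 1087 with the allele pair. A rise over each control alone was not tested. The call was lost without allele-pair replicate 2 (0.45, adjusted p = 0.0623) and with allele-pair replicate 1 alone (0.43, adjusted p = 0.219), and it was kept with the span trend removed (0.40, adjusted p = 0.0244). Against ey>wge the change of Dcp-1 was 0.24 ± 0.15 (adjusted p = 0.361). In ey>wge it was 0.22 ± 0.13 against both controls (adjusted p = 0.556; 0.968-fold to 1.40-fold), made up of 0.04 ± 0.15 against ey-Gal4 (adjusted p = 0.958) and 0.40 ± 0.15 against UAS-wge (adjusted p = 0.193). The difference between the controls themselves, UAS-wge against ey-Gal4, was -0.36 ± 0.15 (adjusted p = 0.229). In the gene table Dcp-1 overlaps the gene pita. There p53 overlaps Gr94a and asRNA:CR46089, Dark overlaps asRNA:CR44390, and grim overlaps lncRNA:CR45975 and asRNA:CR45974. Whether the probe sets separate these genes was not tested.

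**Figure D2:**
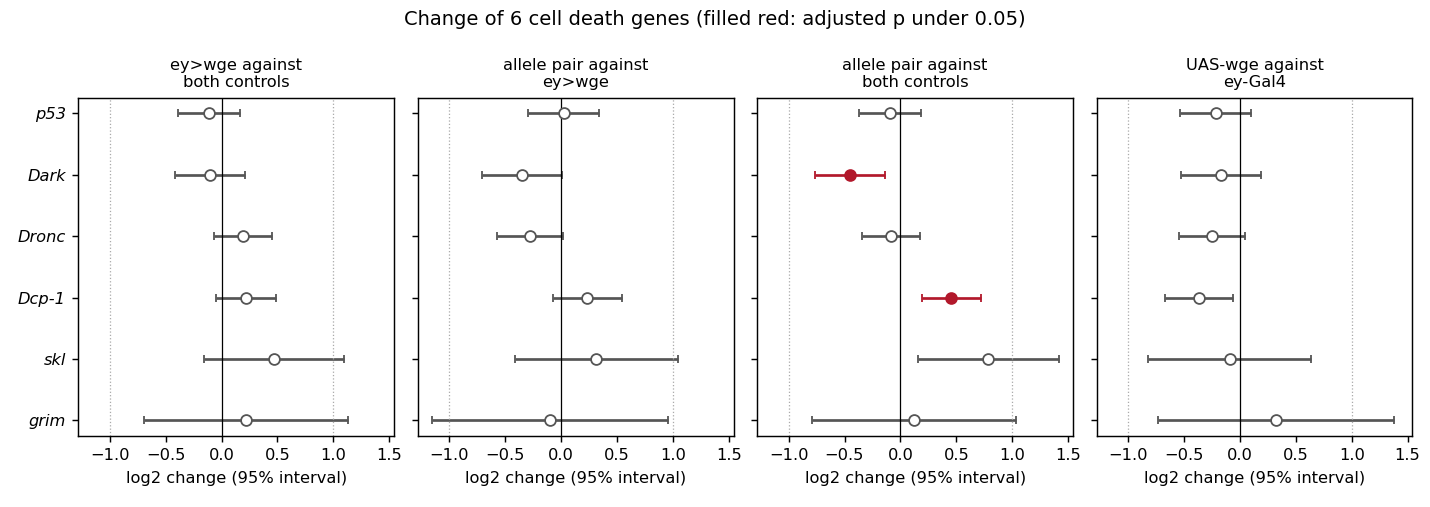
Change of each cell death gene on the log2 scale (points) with its 95% interval (bars) in 4 comparisons. Filled red points passed at an adjusted p under 0.05, and dotted lines mark a log2 change of 1 either way. Only Dark (-0.45) and Dcp-1 (0.46) in the allele pair against both controls are filled, and the intervals of skl and grim are the widest.

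Counted over the 6 genes, limma called 0 in ey>wge against both controls, where 2.97% of all probe sets tested passed. At an unadjusted p under 0.05 it was also 0 of 6, beside 11.8% of all probe sets. The median change of the 6 genes was 0.20 beside 0.01 over all probe sets tested. Against ey-Gal4 alone 0 of 6 passed (3.63% of all), and 0 had an unadjusted p under 0.05 (13.2% of all). Against UAS-wge alone 0 of 6 passed (3.70% of all) and 2, Dcp-1 and Dronc, had an unadjusted p under 0.05, where 12.6% of all probe sets did. In UAS-wge against ey-Gal4 0 of 6 passed (4.99% of all), and Dcp-1 alone had an unadjusted p under 0.05 (14.0% of all). The 3 arrays of each side did not overlap for skl and p53 in ey>wge against ey-Gal4 (22.5% of all), for Dcp-1 and Dronc in ey>wge against UAS-wge (22.6%), and for Dcp-1 and p53 in UAS-wge against ey-Gal4 (22.5%).

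In the allele pair against ey>wge 0 of 6 genes passed, beside 6.80% of all probe sets, and 0 had an unadjusted p under 0.05, beside 22.8%. Against both controls 2 of 6 passed, beside 21.1% of all probe sets tested: Dcp-1 among the 8.46% that were higher and Dark among the 12.7% that were lower. At an unadjusted p under 0.05 it was 3 of 6, with skl, beside 32.5%. At that background 2 of 6 is no result about cell death genes as a group. The median change over all probe sets tested was -0.08 here, and centring the array medians moved it to 0.03. On that scale Dcp-1 changed by 0.57 (adjusted p = 0.0109) and Dark by -0.34 (adjusted p = 0.126). The comparisons of ey>wge and of the allele pair with both controls share the 6 control arrays. Arrays of both sides did not overlap for 0 of 6 genes in ey>wge against both controls (7.65% of all probe sets) and for 2 of 6, skl and Dcp-1, in the allele pair against both controls (15.5%). They did not overlap for 2 of 6, Dcp-1 and Dronc, in the allele pair against ey>wge (22.3%).

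Over the 12 arrays, p53 and Dronc varied least of the 6 genes. Their standard deviations on the log2 scale were 0.173 and 0.182, larger than those of 7.66% and 9.22% of the probe sets tested. Those of Dark (0.258) and Dcp-1 (0.265) were also under the median of 0.458 over all probe sets tested, skl was at 0.444 and grim at 0.568. For the genes that passed in a comparison, the single-gene probe sets with the most similar profile were sought by the root mean square difference of centred log2 values over the 12 arrays. They were Ent2 (0.107), Trmt6 (0.122) and wol (0.124) for Dcp-1, and CG9801 (0.104), Mgat1 (0.105) and slim (0.116) for Dark.

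Around these genes 71 others were listed in 6 groups: other caspases, regulators of IAPs, Bcl-2 proteins and caspases, the p53 and DNA damage response, the tumour necrosis factor (TNF) and JNK pathway, engulfment, and autophagy. Of these, 59 were tested. In ey>wge against both controls 1 rose and 1 fell, 3.39% of the 59 beside 2.97% of all probe sets tested, so the count is no result about death pathways. Leaving out an allele-pair array, which enters through the shared spread, gave 3 without replicate 1 (5.08% beside 4.52% of all probe sets). It gave 4 without replicate 3 (6.78% beside 3.73%). The risen gene was grnd and the fallen one Traf4, both listed in the TNF pathway, in which the ligand Eiger (egr) signals through the receptors Grindelwald (grnd) and Wengen (wgn) to the kinase JNK and can kill disc cells.

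The receptor gene grnd read 1643, 1235 and 1330 in ey-Gal4, 1728, 1617 and 1476 in UAS-wge, and 2415, 2563 and 2423 in ey>wge. All ey>wge arrays lay above all controls, and grnd rose by 0.72 ± 0.12 (adjusted p = 0.00168). In the allele-pair discs it read 2154, 2383 and 2978, again above the controls, a rise of 0.73 ± 0.12 over both (adjusted p = 0.000516). That rise was 0.52 with allele-pair replicate 1 alone and then did not pass (adjusted p = 0.0646).

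Traf4, which codes for an adaptor between such receptors and JNK kinases, read 1092, 1005 and 814 in ey-Gal4, 974, 927 and 857 in UAS-wge, and 459.9, 479.6 and 425 in ey>wge. It fell by 1.02 ± 0.19 on the log2 scale (adjusted p = 0.0027), with no overlap. On the allele-pair arrays Traf4 read 615, 398 and 274. Its change from both controls was -1.18 ± 0.19 (adjusted p = 0.000276), and with allele-pair replicate 1 alone of -0.60 (adjusted p = 0.0667). The second tested probe set of Traf4 changed by 0.21 ± 0.39 in ey>wge against both controls (adjusted p = 0.912). The mean of both probe sets changed by -0.41 there (adjusted p = 0.499). With the allele pair against both controls the second probe set changed by -0.28 ± 0.39 and did not pass (adjusted p = 0.684). In both comparisons the called fall rests on the brighter probe set.

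The ligand gene egr read 744, 788 and 624 in ey-Gal4, 846, 758 and 1070.2 in UAS-wge, and 517, 509.6 and 539 in ey>wge. The ey>wge arrays lay below all controls, yet the change of -0.59 ± 0.16 did not pass against both controls (adjusted p = 0.0623). It passed against UAS-wge alone (-0.74 ± 0.19, adjusted p = 0.0326) and was lost there without UAS-wge replicate 1 or 3 or any of the 3 ey>wge replicates (adjusted p from 0.0843 to 0.191). With the allele pair egr read 476, 424 and 291, a fall of 1.00 ± 0.16 on the log2 scale below both controls (adjusted p = 0.00034), which also passed with allele-pair replicate 1 alone (-0.72, adjusted p = 0.0408) and with the span trend removed (-0.84, adjusted p = 0.000568). The second probe set of egr also fell with the allele pair (-1.66 ± 0.39, adjusted p = 0.00568).

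**Figure D3:**
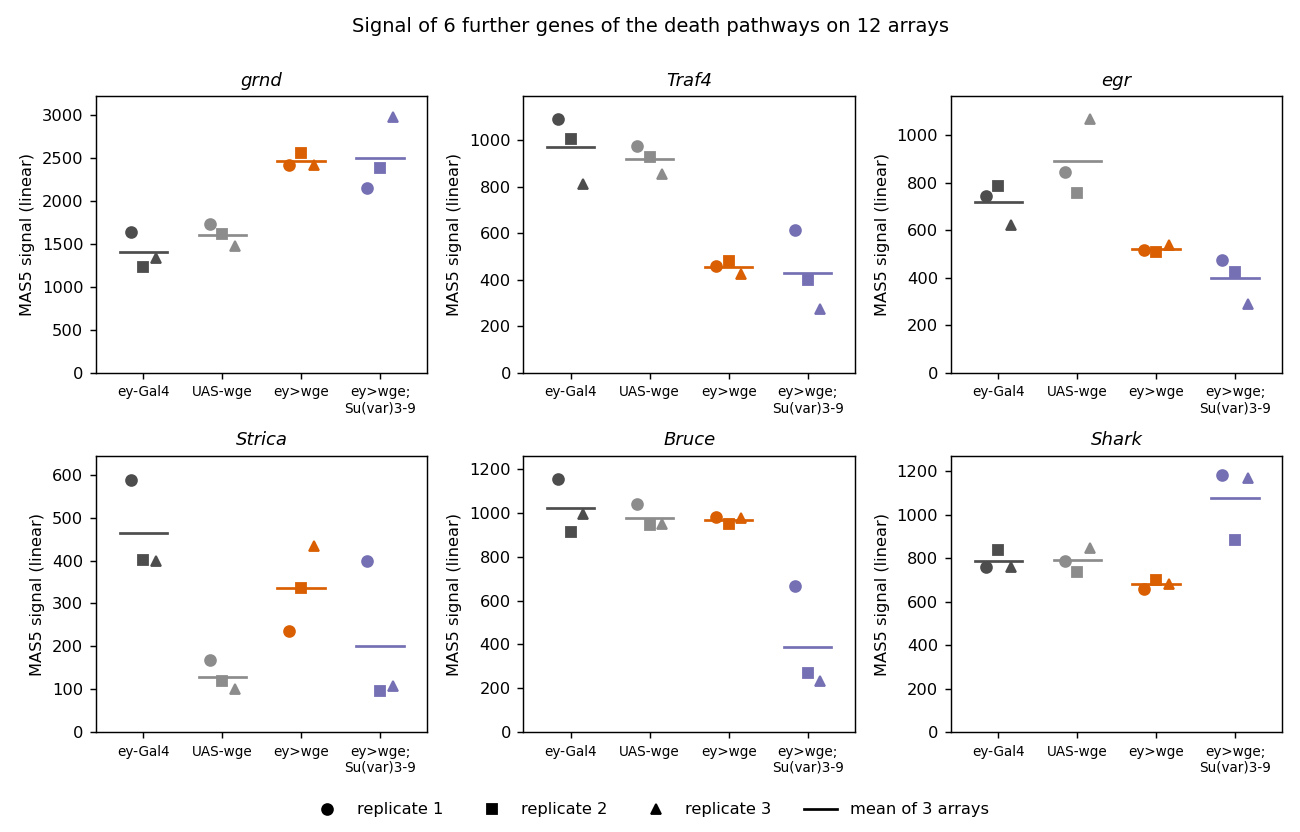
MAS5 signal (linear axis from 0) of 6 further genes of the death pathways that passed in at least 1 comparison, with 1 point per array, a symbol per replicate and a line at the mean of 3 arrays. grnd is higher, and Traf4 and egr are lower, on all 3 ey>wge arrays than on all 6 control arrays, and Bruce in the allele-pair group runs from 233.8 to 668.5.

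In the other 5 groups no gene passed in ey>wge against both controls. The values with the smallest adjusted p were 0.40 ± 0.33 for the caspase gene Strica (adjusted p = 0.744), -0.22 ± 0.20 for the death adaptor gene Fadd (0.769), 0.93 ± 0.34 for the p53 regulator Corp (0.233), -0.29 ± 0.14 for the engulfment gene Ced-12 (0.438) and 0.48 ± 0.25 for the autophagy kinase gene Pi3K59F (0.478). Between the controls Strica, an initiator-type caspase gene, was lower in UAS-wge at 168, 119 and 99.9 than in ey-Gal4 at 589, 402 and 399.9, a change of -1.73 ± 0.38 (adjusted p = 0.00935). The call was lost without ey-Gal4 replicate 1 (adjusted p = 0.0607) or UAS-wge replicate 3 (0.0523). It read 235.5, 337 and 433 in ey>wge and 399, 95.6 and 107 with the allele pair. The summed signal of 4 tested muscle markers of 8 listed (Mlc2, up, Tm2 and twi) was 1959 to 5090 in ey-Gal4, 1011 to 1720.5 in UAS-wge, 2077 to 2701 in ey>wge and 510.4 to 1209 with the allele pair. Its part in the Strica values was not tested. The checkpoint kinase gene grp was also lower in UAS-wge than in ey-Gal4 (-0.49 ± 0.12, adjusted p = 0.0234), and that call was lost without ey-Gal4 replicate 2 or 3 or UAS-wge replicate 1 or 3 (adjusted p from 0.0566 to 0.159). Its other 2 tested probe sets changed by -0.40 ± 0.29 and -0.03 ± 0.35 and did not pass (adjusted p = 0.641 and 0.993).

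Against ey>wge, 3 of the 59 genes passed with the allele pair, 5.08% beside 6.80% of all probe sets tested. The count was 18 without allele-pair replicate 1, where 21.2% of all probe sets passed, and 25 with array weights, where 31.9% did. It was 1 without ey>wge replicate 1 or 3 or allele-pair replicate 3, and 2 without ey>wge replicate 2 or allele-pair replicate 2. In the same order, 343, 405, 397, 391 and 314 of the 13817 probe sets passed in these settings. Bruce, a gene for a giant inhibitor of apoptosis that is also a ubiquitin-conjugating enzyme, fell by 1.43 ± 0.26 on the log2 scale (adjusted p = 0.00357), from 981, 950.2 and 975 to 669, 269 and 234. The DNA damage kinase gene tefu, the fly ATM, fell by 0.99 ± 0.23 (adjusted p = 0.0175), from 964, 953 and 995 to 819.5, 431 and 313. In both genes the lowest arrays were allele-pair replicates 2 and 3. With replicate 1 alone the changes were -0.52 for Bruce (adjusted p = 0.198) and -0.24 for tefu (adjusted p = 0.648), and with the span trend removed -1.23 (adjusted p = 0.00176) and -0.81 (adjusted p = 0.0162). The tefu call was also lost without any 1 of the 3 ey>wge replicates or without allele-pair replicate 2 or 3 (adjusted p from 0.0587 to 0.0864). Shark, a kinase gene of the engulfment pathway, rose by 0.64 ± 0.15 (adjusted p = 0.0152), from 659, 699 and 683 to 1184, 884 and 1169. Its rise was 0.79 with replicate 1 alone (adjusted p = 0.0246), and the call was lost without ey>wge replicate 1 (0.0693) or 3 (0.0541) or allele-pair replicate 3 (0.0574).

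Against both controls 6 of the 59 genes rose and 13 fell with the allele pair, which is 32.2% beside 21.1% of all probe sets. With array medians centred it was 12 genes, 20.3% beside 19.5%, and at an adjusted p under 0.01 it was 7, 11.9% beside 11.3%, so no excess over all probe sets is read from it. Without allele-pair replicate 3 the count was 9, where 1693 of the 13817 probe sets passed, and without replicate 2 it was 11 (1757 of all). Without UAS-wge replicate 2 or 3 it was 12 (2467 and 2613 of all). In the TNF and JNK group 2 rose and 4 fell of 9, led by Traf4, egr and grnd. In the group of IAP, Bcl-2 and caspase regulators 1 rose and 3 fell of 13. Bruce fell by 1.47 ± 0.22 (adjusted p = 0.000171; 0.0502 with replicate 1 alone), ec, a ubiquitin protease gene needed for cell death in the pupal retina, fell by 0.92 ± 0.22 (adjusted p = 0.00669), and Det, the fly Survivin gene, rose by 0.40 ± 0.12 (adjusted p = 0.0257). Of 4 tested probe sets of ec, 2 fell and 2 did not pass. The Det call was lost without ey-Gal4 replicate 2 (adjusted p = 0.0542), UAS-wge replicate 2 (0.0525) or allele-pair replicate 3 (0.203), and with the span trend removed (0.14, adjusted p = 0.396).

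In the p53 and DNA damage group tefu fell by 1.00 ± 0.20 (adjusted p = 0.00197) and Corp rose by 1.00 ± 0.34 (adjusted p = 0.046) of 11 genes. In this comparison 8.46% of all probe sets tested were higher and 12.7% lower. Corp was dim, at 7.8 to 57.1 on the control arrays, and passed with only 1 of the 12 arrays left out in turn, ey-Gal4 replicate 2. Of 6 engulfment genes 2 rose and 2 fell, beside the same shares of all probe sets. The largest changes were those of pall, an F-box gene of phagocytosis (0.65 ± 0.20, adjusted p = 0.0243), Shark (0.43 ± 0.13, adjusted p = 0.0213) and Ced-12, whose product helps to activate Rac at the engulfing membrane (-0.43 ± 0.14, adjusted p = 0.0356). The call of Shark was lost without allele-pair replicate 3 (adjusted p = 0.0991), and that of pall without ey-Gal4 replicate 3 (0.0556), UAS-wge replicate 3 (0.0519), or allele-pair replicate 2 (0.214) or 3 (0.102). For Ced-12 it was lost without ey-Gal4 replicate 1 or 3, UAS-wge replicate 2 or 3, or allele-pair replicate 1 or 3 (adjusted p from 0.0554 to 0.133). Markers of hemocytes, the blood cells, differed mainly between the controls, with 9 of 10 higher in UAS-wge than in ey-Gal4. In ey>wge 9 of 10 were lower than in UAS-wge. Against ey-Gal4, 2 of the 10, PPO1 and PPO2, were lower in ey>wge and 8 did not pass. Of those, NimC1 (0.85 ± 0.28, adjusted p = 0.122), Nplp2 and He changed upward. Hml (-0.71 ± 0.21, adjusted p = 0.080), Sr-CI, Ppn, eater and Pxn changed downward. With the allele pair 7 of the 10 fell against both controls. The summed signal of these 10 was 9411 to 10648 in ey-Gal4, 23616 to 34193 in UAS-wge, 7164 to 8008 in ey>wge and 5392 to 7972 with the allele pair. Their part in the engulfment values was not tested.

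Of 18 autophagy genes 0 rose and 3 fell with the allele pair against both controls. Of all probe sets tested 8.46% were higher and 12.7% lower there, so the count is no result about autophagy genes. Atg16, whose product directs the lipid conjugation of Atg8, fell by 0.51 ± 0.12 (adjusted p = 0.00664), from 824 to 1065 on the 6 control arrays to 635, 604 and 669. The changes of Atg2 and Atg7 were -0.56 ± 0.18 (adjusted p = 0.0348) and -0.42 ± 0.14 (adjusted p = 0.0463). The Atg2 call was lost without ey-Gal4 replicate 2, UAS-wge replicate 2 or 3, or allele-pair replicate 2 or 3 (adjusted p from 0.0565 to 0.237). The Atg7 call was lost without any 1 of the ey-Gal4 or ey>wge replicates, UAS-wge replicate 1 or 3, or allele-pair replicate 2 (adjusted p from 0.0548 to 0.279). With the span trend removed none of the 3 passed, at -0.31 for Atg16 (adjusted p = 0.084), -0.38 for Atg2 (adjusted p = 0.124) and -0.30 for Atg7 (adjusted p = 0.141).

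Of the 19 pathway genes that passed in this comparison, 8 also passed with the span trend removed: Bruce, tefu, egr, grnd, wgn, Traf4, Ced-12 and Shark. In that setting 2051 of the 10745 probe sets fitted passed, so the 8 are no result about death pathways. Passing with allele-pair replicate 1 alone is not counted here, as the group is then a single array. All 19 kept the direction of their change with the span trend removed and with allele-pair replicate 1 alone. Both settings reuse arrays on which the 19 were chosen, so the kept directions are no independent support. Traf4, tefu, ec, Atg16, Bruce, grnd and egr, 7 in all, passed with each of the 12 arrays left out in turn. How many of all probe sets did so is not given here. The receptor gene wgn, which rose by 0.42 ± 0.12 over both controls (adjusted p = 0.0211), was named after its values were seen.

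**Figure D4:**
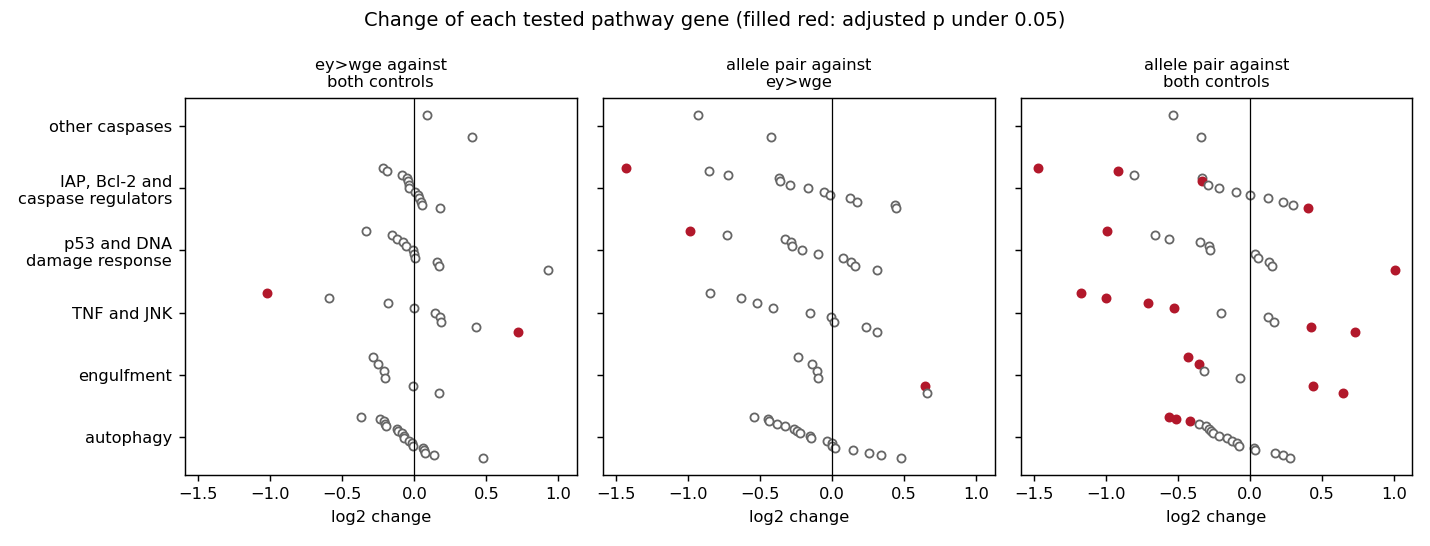
Log2 change of each tested gene (1 point per gene, stacked by value) in 6 groups of death pathway genes, in 3 comparisons. Filled red points passed at an adjusted p under 0.05: 2 of 59 genes in ey>wge against both controls, 3 in the allele pair against ey>wge and 19 in the allele pair against both controls.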

How the data were processed

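Total RNA (100 ng) was amplified over 2 rounds and labelled, per the labels' protocols. The authors deposited 1 table of MAS5 signal intensities, not on a log scale. The submitters' processing notes name MAS5 and give neither version nor settings. The mean of each array, with 2% of the probe sets left out at each end, lay at 500.01 or 500.02, so arrays had been scaled before they were deposited. All values were taken as log2(signal + 16), and arrays were not normalized again. Of 18952 probe sets, 183 were Affymetrix controls and were dropped, and 13817 passed the filter. No detection call was used. The number of arrays limits the precision.

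One mean per genotype was fitted to all 12 arrays with limma 3.58.1 in R 4.3.3 (lmFit and eBayes with a variance trend). Tests were two-sided, at an adjusted p (Benjamini-Hochberg, across the 13817) under 0.05. The 95% intervals came from the same fit. It was tested on simulated data with the same spread in all genotypes and no span trend. That test does not cover the unequal spread and the span trend of these arrays. Symbols came from the platform annotation, updated through gene IDs. The brightest probe set stands for a gene. The cell death genes and the pathway and marker lists were chosen with earlier results of these data known, and all cell death genes are named, with up to 3 genes per pathway list that passed in a comparison and had the smallest adjusted p, or the 1 with the smallest adjusted p where none passed. Genes named beyond that were chosen after their values were seen. Gene span came from the supplied gene table, and its trend was removed per array with a loess curve. The alternatives were other scalings, pseudocounts, filters and variance priors, array weights, a stricter threshold, only the groups compared, the mean of a gene's probe sets, each array left out, a replicate block, allele-pair replicate 1 alone and the span trend removed. Replicates are biological per the labels.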

Additional observations from a re-analysis of the deposited data

How the results depend on the processing

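The counts of cell death genes that passed were recomputed under 26 alternatives. They stayed at 0 under all 26 for ey>wge against both controls and against each control, and for UAS-wge against ey-Gal4. For the allele pair against ey>wge the count became 1 with array weights, and lay between 0 and 1 with 1 array left out. For the allele pair against both controls the count of 2 became 1 with only the groups of the contrast, with the span trend removed and with the mean of all tested probe sets, and 0 with allele-pair replicate 1 alone and with a threshold of 0.01. It became 3 with array weights, where skl joined Dcp-1 and Dark, and lay between 0 and 2 with 1 array left out. With quantile normalization, centred array medians, no trend in the variance prior or UAS-wge replicate 1 left out, skl passed in place of Dark. The count of 2 hides that change of gene. Deviations of same-numbered arrays had correlations from -0.0485 to 0.0833 over 18 pairs. Whether such arrays shared a dissection or a run cannot be told from this, and the labels do not say. With the replicate block the count stayed at 2, and the block changed no other call of a cell death gene. Of 924 recomputed changes of cell death genes, 900 stayed on their side of the threshold, 17 no longer passed and 7 newly passed. In the pathway genes 201 of 805 no longer passed. Cul3, a cullin gene named for this reason alone, had passed with the allele pair against both controls (-0.34, adjusted p = 0.042) and turned to 0.20 (adjusted p = 0.613) with the mean of its probe sets. In the same comparison drpr (-0.36, adjusted p = 0.0486) lost its call with the replicate block (adjusted p = 0.0519). That call was also lost in 9 of 12 fits with 1 array left out (adjusted p from 0.0592 to 0.205). In that comparison the 19 pathway genes called became 29 with array weights, 12 with centred medians, 9 without a variance trend and 7 at 0.01. Of the 13817 probe sets, 6454, 2696, 1998 and 1559 passed under these settings in turn. Over all probe sets, the 939 called against ey>wge ranged from 173 (replicate 1 alone) to 4409 (array weights), and the 2920 against both controls from 657 to 6454 under the same settings. Centring the array medians moved the median of all changes from -0.08 in both comparisons to 0.01 and 0.03. Signals of grim, and less so of skl, were low and limit what these arrays show of them, and no detection call was used. The cause of each move was not tested.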
